A study of Mus musculus with 7 samples.

Results

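The mitosis and spindle genes are 37 genes whose products bring a cell through division, from entry into mitosis to the separation of the daughter cells. They are a list of gene names, drawn up by function with earlier results of these data known, and all 37 were found among the 17209 genes of the deposited table. The study asked how stroke changes gene expression in muscularis macrophages, which live in the muscle layer of the gut. That layer was peeled from whole small intestines of C57BL6/J mice, and CX3CR1-GFP+ cells were sorted 24 h after sham surgery (Sham 1 to Sham 4) or pMCAO surgery, the stroke arm (pMCAO 1 to pMCAO 3). Both groups carry the same sorting reporter and differ by the surgery only, as far as the labels say. Neither the age of the animals nor the form of the GFP allele is given in the labels. The label of pMCAO 3 mentions a pool, which the other labels do not. The titles call the sham libraries biological replicates and the pMCAO libraries replicates, and no label ties a library to a single animal. A p-value here thus reflects how far these libraries spread, and for the pMCAO group the labels do not say whether that spread is biological.

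A cell enters mitosis when cyclin-dependent kinase bound to A- and B-type cyclins becomes active together with the Polo and Aurora kinases. Condensins and topoisomerase compact and disentangle the chromosomes, kinesins build the spindle, kinetochore proteins attach chromosomes to it, and a checkpoint holds the anaphase-promoting complex back until every chromosome is attached. The RNAs of most of these genes are made late in the cycle, under the MuvB, B-Myb and FoxM1 factors, so in sorted tissue they are used as marks of dividing cells. Gut macrophages are renewed both by division in place and by incoming monocytes. In a bulk library of sorted cells, fewer cells in division and less RNA per dividing cell cannot be told apart.

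The sorted cells carried the RNAs of macrophages. Cx3cr1, the gene at the reporter, was between 207 and 299 CPM in the sham libraries and between 137 and 222 CPM in the pMCAO libraries, where CPM is the count scaled to the depth of the library with TMM factors. Csf1r, the receptor for the macrophage growth factor, was between 1478 and 2783 CPM after sham surgery and between 1615 and 1917 CPM after pMCAO. Adgre1, which encodes F4/80, was between 941 and 1574 CPM and between 816 and 1296 CPM, and Ptprc, the pan-leukocyte CD45, between 1699 and 2547 CPM and between 1931 and 2092 CPM. None of these 4 genes passed the test (smallest adjusted p = 0.256, for Cx3cr1, with a log2 change of -0.55).

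The libraries held between 12685941 and 34432716 counts, the fewest in pMCAO 1 and the most in Sham 4. Mitochondrial ribosomal RNA took 2.42% to 5.82% of the counts in the sham libraries and 8.26% to 12.5% in the pMCAO libraries. Marker lists of other cell types were summed in each library. The sum of 10 blood endothelium markers was higher in every pMCAO library (318 to 437 CPM) than in any sham library (106 to 285 CPM). The sum of 10 T cell markers was lower in every pMCAO library (105 to 145 CPM) than in any sham library (153 to 212 CPM). That sum was mostly Cd4, at a mean of 104 CPM over all libraries. Of the 10 T cell markers, 6 had lower and 4 higher means after pMCAO, and 0 were without overlap between the groups. The 13 pan-macrophage markers summed to 12767 to 18689 CPM after sham surgery and to 12372 to 14302 CPM after pMCAO. Fibroblast markers were at 62.8 to 178 and 109 to 562 CPM, monocyte markers at 1600 to 2453 and 2370 to 3177, neutrophil markers at 184 to 247 and 118 to 201, and B and plasma cell markers at 454 to 1809 and 426 to 840. Large peritoneal macrophage markers were at 524 to 1300 and 484 to 2205 CPM, mast cell markers at 20.8 to 128 and 69.9 to 146, smooth muscle at 81.2 to 234 and 87.7 to 165, and interstitial cells of Cajal at 93.9 to 135 and 93.8 to 333. The large peritoneal macrophage sum was mostly Fn1, at a mean of 888 CPM over all libraries. The monocyte sum was mostly F13a1 and Ccr2, at means of 1309 and 741 CPM. Enteric glia and neuron markers were at 8.69 to 12.1 and 7.58 to 18.5 CPM, intestinal epithelium at 14.2 to 65.0 and 21.6 to 45.0, mesothelium at 1.32 to 4.36 and 4.27 to 11.3, and erythroid markers at 3.18 to 10.98 and 4.77 to 25.4. Hba-a1, Wt1, Msln, Olfm4, Lgr5, Sox10, Gfap, Gata6 and Ly6g are not in the table. Genes of the Y chromosome summed to 228 to 572 CPM in Sham 1, Sham 3, pMCAO 2 and pMCAO 3 and to 1.92 to 12.1 CPM in Sham 2, Sham 4 and pMCAO 1. Beyond fits with marker scores as covariates, given below, the part that these differences play in the values of the mitotic genes was not tested. The blood endothelium sums did not overlap between the groups, so those fits cannot tell them apart from the surgery.

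The mitosis and spindle genes had lower means after pMCAO in 34 of 37 cases, against 51.4% of all genes, but none of them passed the test across all genes. By the edgeR quasi-likelihood test 0 of 37 were called at an adjusted p under 0.05, against 0.0988% of all genes called in either direction and 0.0291% called lower. At an unadjusted p under 0.05, 18 members were lower, against 6.47% of all genes, and 0 were higher, against 6.97%. The median log2 change was -0.74 over the members and -0.02 over all genes. In 14 of 37 members every pMCAO library lay below every sham library, a pattern of 6.58% of all genes, and in 0 members every pMCAO library lay above, against 5.99%. DESeq2 called 7 members lower (Ccnb1, Bub1, Ttk, Aurkb, Kif11, Kif23 and Mki67). It called 476 of 17177 genes tested, 192 of them lower. By limma-voom 0 members were called among 35 genes. With sample quality weights limma-voom called 8 members lower (Ccna2, Cenpa, Cenpf, Kif4, Kif11, Hmmr, Kif23 and Mki67). That fit called 818 of 17209 genes, 267 of them lower.

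**Figure D1:**
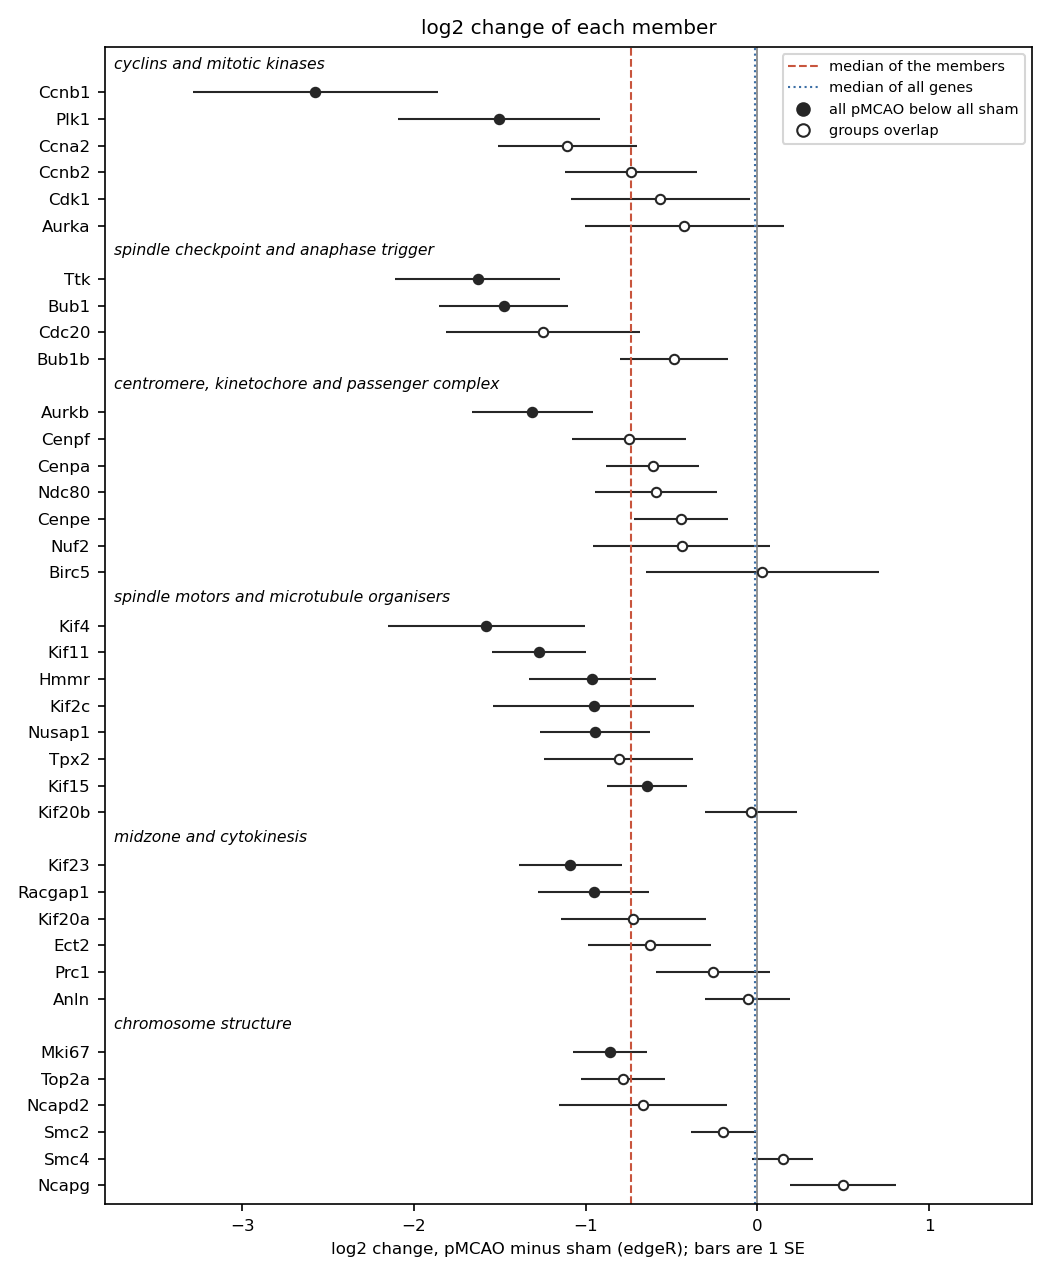
The log2 change of each of the 37 genes, pMCAO minus sham, from edgeR, with bars of 1 standard error, grouped by role. Filled points mark the 14 genes in which every pMCAO library lay below every sham library; 34 points lie left of 0, the median of the members is -0.74 (dashed line) and the median of all genes is -0.02 (dotted line).

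Summed over the 37 genes, the level was 1219, 1123, 1071 and 1619 CPM in Sham 1 to Sham 4 and 826, 890 and 927 CPM in pMCAO 1 to pMCAO 3. All 3 pMCAO sums were below all 4 sham sums, and the ratio of the group means was 0.701. Mki67, Smc4 and Top2a supplied 20.8%, 18.9% and 8.78% of the sum over the 7 libraries, and without them the sums were 612, 605, 571 and 857 CPM against 375, 461 and 479 CPM, a ratio of 0.663. Within the 4 libraries with the higher Y chromosome sums the sums were 1219 and 1071 CPM after sham surgery and 890 and 927 CPM after pMCAO, and within the other 3 they were 1123 and 1619 CPM against 826 CPM. As a percentage of the Ptprc level, the member sum was 47.9, 66.1, 55.6 and 85.5 in the sham libraries and 42.8, 45.4 and 44.3 in the pMCAO libraries, without overlap. As a percentage of the pan-macrophage marker sum it was 9.55, 6.10, 6.09 and 8.66 in the sham libraries and 5.91, 7.20 and 6.48 in the pMCAO libraries, and the groups overlapped. Relative to Csf1r it was 82.5%, 45.9%, 41.9% and 58.2% against 43.1%, 55.1% and 48.6%, also with overlap.

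**Figure D2:**
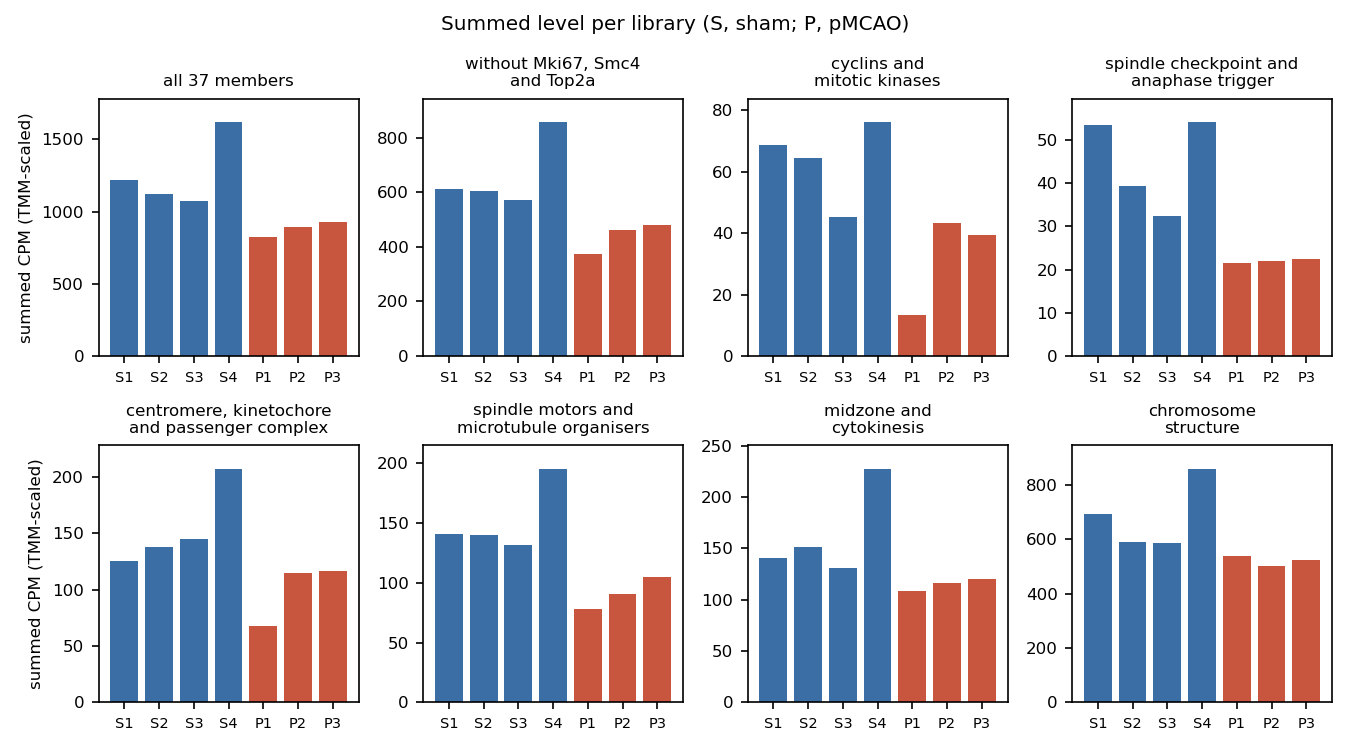
Summed TMM-scaled CPM in each library (S1 to S4, sham; P1 to P3, pMCAO) for all 37 genes, for the 34 genes without Mki67, Smc4 and Top2a, and for each of the 6 roles. Each bar is 1 library and each axis starts at 0; in every panel the 3 pMCAO bars are below the 4 sham bars, and Sham 4 is the tallest.

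Sham 4 held the highest value of 26 of the 37 genes, Sham 1 of 7, pMCAO 2 of 2 (Aurka and Birc5), and Sham 2 and pMCAO 1 of 1 each (Plk1 and Ncapg). The lowest value was in pMCAO 1 for 19 genes and in pMCAO 2 for 7. Against the sham mean the median gene was 0.44 higher on the log2 scale in Sham 4, and lower in every other library, by 0.05 to 0.18 in Sham 1 to Sham 3 and by 0.50 to 0.99 in the pMCAO libraries. Without Sham 4 the median log2 change of the members was -0.57, with 31 of 37 lower and 11 lower at an unadjusted p under 0.05, against 4.11% of all genes in that fit. With both Sham 4 and pMCAO 1 left out it was -0.50, with 29 of 37 lower and 8 lower at an unadjusted p under 0.05 (3.92% of all genes), and in 16 members every remaining pMCAO library lay below every remaining sham library, against 12.8% of all genes. With a score of the fibroblast and blood endothelium markers as a covariate in edgeR, the members' median was -0.36, with 31 lower and 3 lower at an unadjusted p under 0.05 (2.77% of all genes), and 0 of all genes were called. With a pan-macrophage marker score as the covariate it was -0.80, with 28 lower and 6 lower at an unadjusted p under 0.05 (2.77% of all genes).

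**Figure D3:**
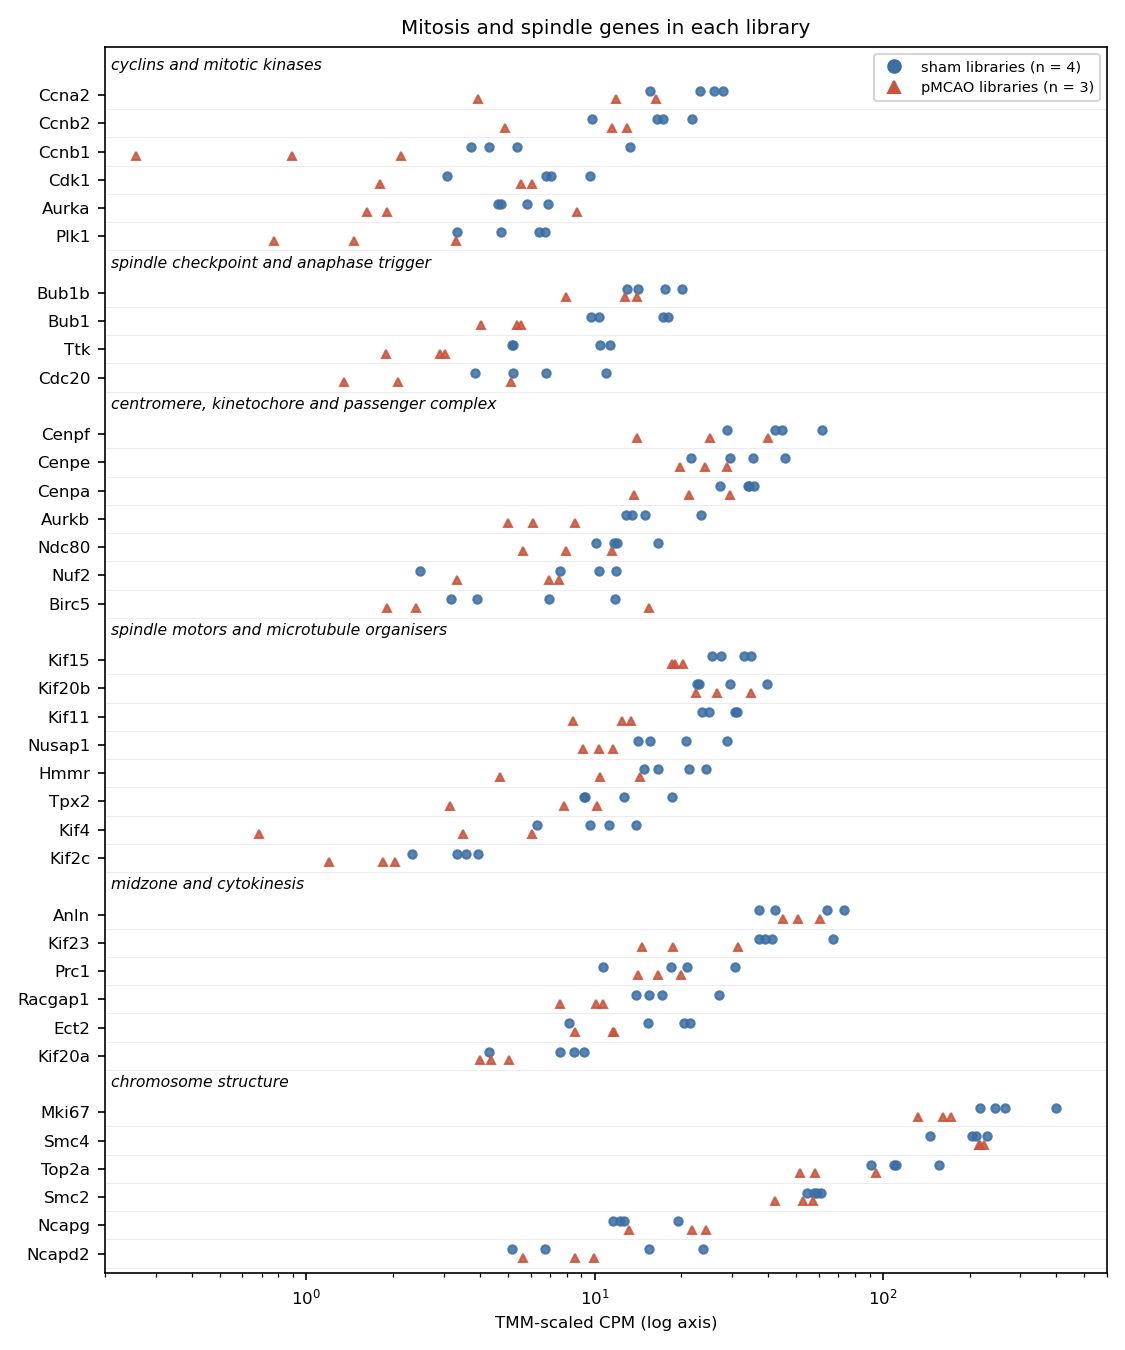
TMM-scaled CPM of each of the 37 genes in each library on a log axis, with 4 circles for the sham libraries and 3 triangles for the pMCAO libraries, grouped by role. Ccnb1 spans from 0.256 CPM in pMCAO 1 to 13.2 CPM in Sham 1, while Smc4 lies between 146 and 230 CPM in all 7 libraries.

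The genes differ widely in level. Per kilobase of exon, Smc4 was at 37.9 CPM in the sham mean, Mki67 at 28.0, Top2a at 13.01, Ccnb2 at 10.7 and Smc2 at 10.6, and Kif2c was lowest at 0.755. In the pMCAO mean Smc4 was at 42.0 CPM per kilobase and Mki67 at 15.5. Smc4 and Mki67, the most abundant by this measure, thus had log2 changes of opposite sign, and neither passed the test.

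The promoters of the members are shown because these genes share sequence elements through which late cell cycle genes are known to be controlled. The cell cycle homology region, TTTGAA, is bound by the MuvB complex, which carries LIN54, and CCAAT is bound by NF-Y. The 200 bases before the annotated start are printed for Kif11, the member with the smallest p, for Mki67 and Top2a, which are abundant members with lower means, and for Smc2, an abundant member with a mean near that of sham. They are from RefSeq (GRCm38.p6), 5′ to 3′ on the strand of the gene, at chr19:37376182-37376381 (plus strand) for Kif11, chr7:135716380-135716579 (minus) for Mki67, chr11:99024190-99024389 (minus) for Top2a and chr4:52439021-52439220 (plus) for Smc2. Capitals mark every match to TTTGAA or CCAAT on either strand, read as TTCAAA or ATTGG where the match is on the other strand.
Kif11: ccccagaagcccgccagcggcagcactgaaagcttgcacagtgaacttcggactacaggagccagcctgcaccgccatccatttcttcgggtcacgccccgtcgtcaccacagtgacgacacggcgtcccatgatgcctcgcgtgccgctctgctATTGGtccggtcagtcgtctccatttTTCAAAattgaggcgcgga
Mki67: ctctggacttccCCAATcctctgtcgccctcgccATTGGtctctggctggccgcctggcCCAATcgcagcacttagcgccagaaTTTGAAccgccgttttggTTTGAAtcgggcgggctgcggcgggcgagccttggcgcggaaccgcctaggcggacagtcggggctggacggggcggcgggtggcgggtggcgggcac
Top2a: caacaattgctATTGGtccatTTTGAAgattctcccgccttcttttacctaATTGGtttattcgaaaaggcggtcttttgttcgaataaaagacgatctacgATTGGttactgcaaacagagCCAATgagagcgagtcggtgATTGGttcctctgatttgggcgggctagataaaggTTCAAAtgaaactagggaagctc
Smc2: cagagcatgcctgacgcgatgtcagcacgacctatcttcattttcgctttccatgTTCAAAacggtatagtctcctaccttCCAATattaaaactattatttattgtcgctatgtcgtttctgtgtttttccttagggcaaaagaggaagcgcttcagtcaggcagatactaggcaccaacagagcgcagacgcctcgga

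In these 4 stretches Kif11 has 1 match to each element, with CCAAT 45 and TTTGAA 19 bases before the start. Mki67 has 3 matches to CCAAT and 2 to TTTGAA. Smc2, whose log2 change was -0.20, has both elements too. Promoters of 250 bases before to 50 bases after the start were found for 32 of the 37 members, as 34 promoters because Ect2 and Prc1 have 2 each. Aurkb, Ccna2, Kif20a, Smc4 and Tpx2 had none in the table. TTTGAA was in 28 of the 34 (82.4%) and in 17.9% of 32851 promoters of the same length. CCAAT was in 26 (76.5%) against 37.4%, and both were in 23 (67.6%) against 6.95%. The variant TTTAAA, which shares no match with TTTGAA, was in 9 (26.5%) against 13.2%. All were searched on both strands, and a match is a run of letters and not a measured site. The 26 genes with TTTGAA had a median log2 change of -0.70, and the 6 without it of -0.70. For CCAAT the medians were -0.77 in 24 genes with it and -0.52 in 8 without it in this window. Bub1 and Ccnb1, which have some of the larger log2 changes, have CCAAT and no TTTGAA in it, while Birc5, Nuf2 and Nusap1 have neither.

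**Figure D4:**
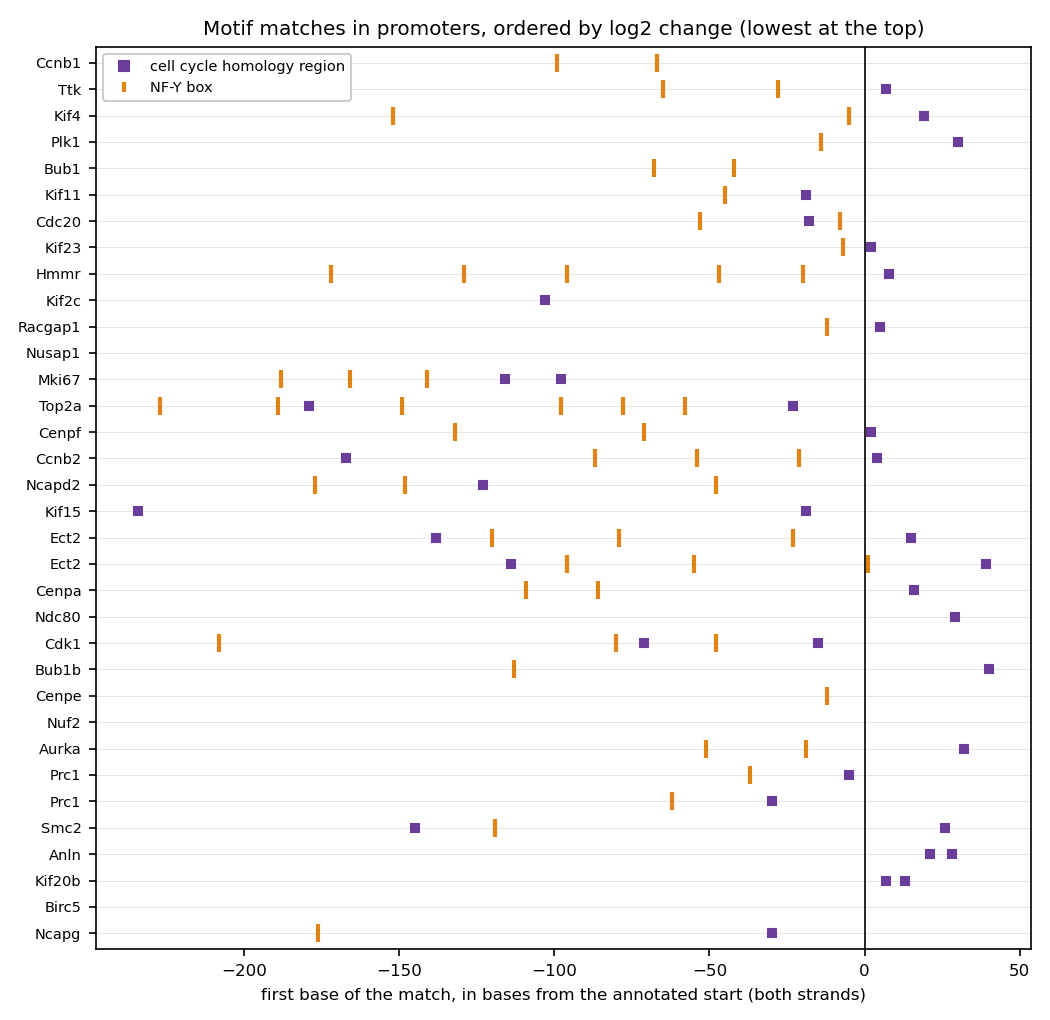
Position of each match to the cell cycle homology region (squares) and to the NF-Y box (bars) in the 34 promoters, in bases from the annotated start (0, vertical line), on both strands. Genes run from the lowest log2 change at the top (Ccnb1) to the highest at the bottom (Ncapg); the matches of Kif11 are at -45 and -19.

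Of the 6 cyclins and mitotic kinases, 3 were lower at an unadjusted p under 0.05, against 6.47% of all genes, and 0 passed the adjusted test. All 6 had lower means after pMCAO (median log2 change -0.92). Their summed level was 45.3 to 76.1 CPM in the sham libraries and 13.2 to 43.3 CPM in the pMCAO libraries. Ccnb1, the B-type cyclin whose accumulation starts mitosis, was at 13.2, 4.30, 3.73 and 5.39 CPM in Sham 1 to Sham 4 and at 0.256, 0.895 and 2.13 CPM in pMCAO 1 to pMCAO 3. Sham 1 stood high, the groups did not overlap, and the pMCAO values rest on 3, 19 and 38 counts. The log2 change was -2.57 (SE 0.71, adjusted p = 0.154 by edgeR). Plk1, the Polo kinase that matures centrosomes and drives mitotic entry, was at 3.34, 6.71, 4.74 and 6.40 CPM after sham surgery and at 0.769, 3.30 and 1.46 CPM after pMCAO. The highest pMCAO value was just under the lowest sham value, and the log2 change was -1.51 (SE 0.59, adjusted p = 0.285).

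Ccna2, the cyclin of S phase and mitotic entry, was at 28.0, 23.3, 15.5 and 26.1 CPM in the sham libraries and at 3.93, 11.9 and 16.3 CPM in the pMCAO libraries. Only pMCAO 3 reached into the sham range, above Sham 3, and the log2 change was -1.11 (SE 0.40, adjusted p = 0.259). Ccnb2, the other B-type cyclin, was at 16.5, 17.3, 9.79 and 21.7 CPM against 4.87, 12.9 and 11.5 CPM, with overlap through Sham 3 (log2 change -0.74, SE 0.39, adjusted p = 0.425). Cdk1, the kinase that these cyclins activate, had means of 6.65 ± 2.70 CPM (SD, n = 4) and 4.47 ± 2.33 CPM (SD, n = 3), which differ by less than the SD of the sham libraries. Aurka, the kinase of centrosomes and spindle poles, was at 1.62 and 1.91 CPM in pMCAO 1 and pMCAO 3 but at 8.71 CPM in pMCAO 2, above all sham libraries (4.62 to 6.90 CPM).

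The 4 genes of the spindle checkpoint and the anaphase trigger all had lower means, with the lowest median of the 6 roles, -1.36. Of the 4, 3 were lower at an unadjusted p under 0.05, against 6.47% of all genes. The summed level of the 4 genes was nearly the same in the 3 pMCAO libraries, 21.5, 22.1 and 22.4 CPM. It was 53.5, 39.3, 32.4 and 54.1 CPM in the sham libraries. Bub1, a kinase that recruits checkpoint proteins to kinetochores, was at 18.02, 9.72, 10.4 and 17.3 CPM after sham surgery and at 5.55, 5.37 and 4.04 CPM after pMCAO. The highest pMCAO library was well under the lowest sham library, and the log2 change was -1.48 (SE 0.38, adjusted p = 0.132). Ttk, the kinase that starts checkpoint signalling (MPS1), was at 10.4, 5.16, 5.20 and 11.4 CPM against 2.91, 1.88 and 3.03 CPM. The groups did not overlap, and Sham 1 and Sham 4 were higher than Sham 2 and Sham 3, as for Bub1 (log2 change -1.63, SE 0.48, adjusted p = 0.186).

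Cdc20, which activates the anaphase-promoting complex once the checkpoint is released, was at 10.9, 6.796, 3.83 and 5.22 CPM in the sham libraries and at 5.13, 2.07 and 1.35 CPM in the pMCAO libraries. pMCAO 1 lay within the sham range, and the log2 change was -1.25 (SE 0.57, adjusted p = 0.359). Bub1b, which encodes the checkpoint inhibitor BUBR1 and binds CDC20, was at 14.2, 17.6, 12.96 and 20.2 CPM against 7.95, 12.8 and 14.02 CPM. The overlap came from Sham 3 and pMCAO 3, and the log2 change was -0.48 (SE 0.32, adjusted p = 0.526).

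Among the 7 genes of centromeres, kinetochores and the chromosomal passenger complex, 6 had lower means (median log2 change -0.59). An unadjusted p under 0.05 was reached by 3 of the 7, all lower, against 6.47% of all genes. Aurkb, the kinase of the passenger complex that corrects faulty attachments, was at 13.5, 14.9, 12.8 and 23.4 CPM in the sham libraries and at 8.55, 4.99 and 6.11 CPM in the pMCAO libraries. It was the only gene of this role whose groups did not overlap, with a log2 change of -1.31 (SE 0.35, adjusted p = 0.147). Birc5, which encodes survivin, its partner in the same complex, differed from it in that its means were alike, 6.46 ± 3.93 CPM (SD, n = 4) and 6.57 ± 7.65 CPM (SD, n = 3). pMCAO 2 was at 15.4 CPM, the highest of all libraries, while pMCAO 1 and pMCAO 3 were at 2.39 and 1.91 CPM, below all sham libraries (3.18 to 11.8 CPM).

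Cenpa, the histone H3 variant that marks centromeres, was at 27.3, 34.2, 34.3 and 35.7 CPM after sham surgery and at 13.8, 29.5 and 21.3 CPM after pMCAO. pMCAO 2 lay above Sham 1, and the log2 change was -0.61 (SE 0.27, adjusted p = 0.348). Cenpf, a large kinetochore protein that accumulates in late interphase, was at 28.9, 42.1, 44.8 and 61.8 CPM against 14.01, 25.1 and 40.0 CPM. pMCAO 3 was inside the sham range (log2 change -0.75, SE 0.33, adjusted p = 0.348). Cenpe, the kinetochore kinesin, and Ndc80 and Nuf2, which form the microtubule-binding end of the kinetochore, had log2 changes of -0.45, -0.59 and -0.44 and overlapping groups. Nuf2 was lowest in a sham library, Sham 3, at 2.47 CPM.

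Spindle motors and microtubule organisers had the most genes of any role with every pMCAO library below every sham library, 6 of 8, against 6.58% of all genes. In this role 5 genes were lower at an unadjusted p under 0.05, against 6.47% of all genes. All 8 had lower means (median log2 change -0.95). Their summed level was 132 to 195 CPM in the sham libraries and 78.2 to 105 CPM in the pMCAO libraries. Kif11, the tetrameric kinesin that pushes spindle poles apart (chr19:37376403-37421859), was at 31.2, 23.6, 25.0 and 30.7 CPM in Sham 1 to Sham 4 and at 12.5, 8.43 and 13.4 CPM in pMCAO 1 to pMCAO 3. The highest pMCAO library was far below the lowest sham library, and the values within each group were close. Its log2 change of -1.27 (SE 0.27) had the smallest p of all members, 0.000359, which ranked 79th of 17209 genes, and an adjusted p of 0.0782 by edgeR. The adjusted p was 0.00148 by DESeq2, 0.0964 by limma-voom, 0.0208 with quality weights and 0.0266 with offsets that remove trends with the GC content and length of exons. It was 0.279 without Sham 4 and 0.246 without pMCAO 1, and over all settings it reached 0.853, with the stromal score as a covariate. The log2 change of Kif11 stayed between -1.09 and -1.58 in all of these settings. In the authors' deposited table it was smaller, -0.86, at an FDR of 0.306.

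Nusap1, which bundles microtubules at chromosomes, was at 20.8, 14.2, 15.6 and 28.9 CPM after sham surgery and at 10.3, 9.09 and 11.6 CPM after pMCAO. The groups did not overlap, with a log2 change of -0.95 (SE 0.32, adjusted p = 0.227). Kif15, a kinesin that can share the pole-separating work of Kif11, was at 25.5, 33.1, 27.4 and 34.9 CPM against 19.0, 20.3 and 18.6 CPM. Its 3 pMCAO values were within 2 CPM of each other and below all sham values (log2 change -0.65, SE 0.23, adjusted p = 0.258). Kif4, the chromokinesin that moves chromosome arms, was at 10.3 ± 3.19 CPM (SD, n = 4) and 3.41 ± 2.69 CPM (SD, n = 3), a log2 change of -1.58 (SE 0.57, adjusted p = 0.258) without overlap, and pMCAO 1 had 8 counts. Hmmr, which links microtubules at spindle poles, and Kif2c, a kinesin that depolymerises microtubule ends, also did not overlap, with log2 changes of -0.96 and -0.95. Tpx2, which activates Aurora kinase A on the spindle, had a log2 change of -0.81 and overlapping groups. Kif20b, a kinesin of late mitosis, was the exception in this role, at 22.7, 29.5, 23.1 and 39.7 CPM in the sham libraries and at 26.7, 22.6 and 35.0 CPM in the pMCAO libraries. Its groups overlapped throughout, and the log2 change was -0.04 (SE 0.27, adjusted p = 0.970).

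The 6 genes of the spindle midzone and of cytokinesis had lower means, with a median log2 change of -0.67. Of the 6, 2 were lower at an unadjusted p under 0.05, against 6.47% of all genes. Those 2 encode the partners in a single complex, centralspindlin, which gathers at the midzone and calls in the contractile ring. Kif23, its kinesin, was at 41.2, 39.1, 37.1 and 67.0 CPM in the sham libraries and at 14.6, 31.4 and 18.8 CPM in the pMCAO libraries. Sham 4 stood apart above the other sham libraries, the groups did not overlap, and the log2 change was -1.09 (SE 0.30, adjusted p = 0.153). Racgap1, its GTPase-activating subunit, was at 17.1, 15.4, 13.97 and 27.02 CPM against 7.61, 10.7 and 10.1 CPM. Here too Sham 4 was highest and no library overlapped (log2 change -0.95, SE 0.32, adjusted p = 0.232).

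Ect2, the exchange factor that centralspindlin recruits to activate RhoA, was at 21.5, 8.13, 15.3 and 20.5 CPM after sham surgery and at 11.6, 8.52 and 11.7 CPM after pMCAO. Sham 2 was the lowest of all libraries, so the groups overlapped (log2 change -0.63, SE 0.36, adjusted p = 0.468). Anln, the anillin scaffold of the contractile ring, was at 42.3, 63.9, 37.3 and 73.1 CPM against 50.8, 45.1 and 60.4 CPM. The pMCAO libraries lay inside the sham range, and the log2 change was -0.06 (SE 0.25, adjusted p = 0.946). Prc1, which crosslinks antiparallel microtubules, and Kif20a, the kinesin that brings Aurora B to the midzone, had log2 changes of -0.26 and -0.72 with overlap.

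The 6 genes of chromosome structure had 4 lower and 2 higher means, with a median log2 change of -0.43. Of the 6, 2 were lower at an unadjusted p under 0.05, against 6.47% of all genes. Mki67 (chr7:135689784-135716361), which encodes the Ki-67 protein that coats mitotic chromosomes and is the usual mark of cycling cells, was at 265, 217, 244 and 400 CPM in Sham 1 to Sham 4 and at 133, 162 and 172 CPM in pMCAO 1 to pMCAO 3. The groups did not overlap, Sham 4 was the highest, and the log2 change was -0.86 (SE 0.21, unadjusted p = 0.00131, adjusted p = 0.128). Top2a, the topoisomerase that disentangles sister chromatids, was at 111, 90.8, 110 and 157 CPM against 94.9, 51.6 and 58.1 CPM. Only pMCAO 1, just above Sham 2, overlapped the sham range (log2 change -0.78, SE 0.24, adjusted p = 0.196).

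The condensin genes, whose rings compact chromosomes, had log2 changes of both signs. Smc4, the core subunit of both condensins, was at 230, 210, 146 and 204 CPM after sham surgery and at 224, 215 and 218 CPM after pMCAO, so that the pMCAO libraries lay within the sham range (log2 change 0.15, SE 0.18, adjusted p = 0.758). Its partner Smc2 had means of 58.1 ± 2.69 CPM (SD, n = 4) and 50.7 ± 7.60 CPM (SD, n = 3), a difference below the pMCAO SD. Ncapg, a subunit of condensin I, was at 19.6, 12.3, 11.6 and 12.6 CPM in the sham libraries and at 24.4, 21.8 and 13.2 CPM in the pMCAO libraries. Sham 1 was inside the pMCAO range, and its log2 change of 0.50 (SE 0.31, adjusted p = 0.503) was the highest of the 37. Ncapd2, another subunit of condensin I, ranged from 5.16 to 23.7 CPM within the sham group alone (log2 change -0.67, adjusted p = 0.579).

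Because the strand setting of the counting is not given, part of some values may belong to a neighbour on the other strand. The share of exonic length overlapped by an opposite-strand exon was 29.3% for Kif20a (Cdc23), 15.1% for Kif4 (Pdzd11), 13.4% for Ncapg (Lcorl), 12.5% for Ccna2 (Exosc9), 11.1% for Prc1 (Rccd1), 7.09% for Plk1 (Gm44985), 4.24% for Nusap1 (Oip5) and 2.84% for Cdc20 (Elovl1). Reads of Ccnb1, Ccnb2 and Kif4 could also be shared with annotated pseudogenes that bear their names.

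The authors' deposited table gives its own log2 fold changes for the same genes. In the authors' deposited table, negative values were given for 29 members and positive values for 8, with a median of -0.78 beside -0.04 over all genes. It gives 0 members at an FDR under 0.05 (14 genes in all, 0.0814%), a smallest member FDR of 0.188, for Plk1, and 7 members lower at a p under 0.05, against 9.69% of all its genes. The sign was the same as in edgeR for 30 of 37 members. In the authors' deposited table Birc5 was at -1.70 and Ect2 at 0.52, against 0.03 and -0.63 by edgeR, and the model behind the authors' values was not stated.

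Genes around the members in the cell cycle were read from 8 further lists, with 194 of 199 genes measured. Of these, 130 had lower means, against 51.4% of all genes, and 0 were called by edgeR, against 0.0988%. At an unadjusted p under 0.05, 35 of the 194 were lower and 9 higher, against 6.47% and 6.97% of all genes. DESeq2 called 15 of the 194, among 476 of 17177 genes tested. With limma-voom 0 were called, among 35 genes, and with quality weights 15, among 818 of 17209 genes. Of the genes named below, Ckap2, Uhrf1, Ccnd1, Ccnd2, Tob1 and Il4ra were called by both DESeq2 and the quality-weighted fit, Pbk, Cdca3, Mcm2 and E2f1 by DESeq2, and Pcna and Anapc16 by the quality-weighted fit. In the list of other mitotic genes 48 of 67 had lower means, with a median log2 change of -0.48, and 17 were lower and 0 higher at an unadjusted p under 0.05. Its genes with the smallest p were Pbk, a mitotic kinase, at 5.28 ± 1.95 CPM (SD, n = 4) and 0.922 ± 0.282 CPM (SD, n = 3), Ckap2, a spindle protein, at 9.62 ± 1.24 and 3.06 ± 0.615 CPM, and Cdca3, a trigger of mitotic entry, at 5.85 ± 3.41 and 1.00 ± 0.601 CPM. None of the 3 overlapped between groups, and their adjusted p were 0.117, 0.117 and 0.144. The DNA replication list had 30 of 36 lower means and a median of -0.53, with 6 lower and 1 higher at an unadjusted p under 0.05. Uhrf1, which keeps DNA methylation through replication, was at 7.13, 5.89, 7.31 and 11.3 CPM after sham surgery and at 1.62, 1.46 and 2.02 CPM after pMCAO. Its log2 change of -2.22 (SE 0.47, adjusted p = 0.0723) was called by DESeq2, by limma-voom with quality weights and when only genes with a mean of at least 5 CPM were tested. Mcm2, a subunit of the replicative helicase, had a log2 change of -1.17 and no overlap, while Pcna, the sliding clamp, was higher in every pMCAO library, at 164 to 205 CPM against 115 to 147 CPM (log2 change 0.56, adjusted p = 0.186).

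**Figure D5:**
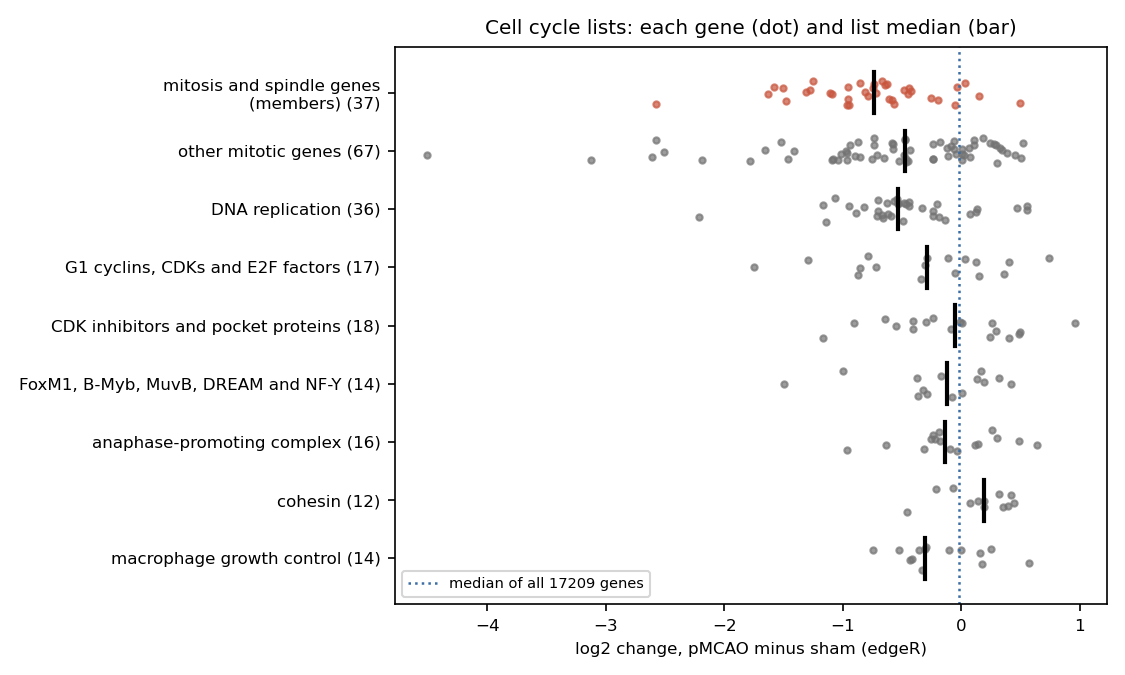
The log2 change, pMCAO minus sham, of each measured gene (dots) in the mitosis and spindle genes and in 8 other cell cycle and growth lists, with the number of genes in brackets, the median of each list (black bar) and the median of all 17209 genes (dotted line). The medians run from -0.74 for the mitosis and spindle genes and -0.53 for DNA replication to 0.19 for cohesin.

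Upstream of mitosis, 11 of 17 G1 cyclins, kinases and E2F factors had lower means (median log2 change -0.29). Ccnd1, the D-type cyclin that relays growth signals, was at 127, 130, 114 and 122 CPM in the sham libraries and at 65.2, 65.5 and 83.4 CPM in the pMCAO libraries, with a log2 change of -0.79 (SE 0.17, adjusted p = 0.0898). It was called by DESeq2 and by limma-voom with quality weights. Ccnd2, a second D-type cyclin, and E2f1, a transcription factor of S phase entry, had log2 changes of -0.72 and -1.29 and did not overlap either. Of the CDK inhibitors and pocket proteins, 10 of 18 were lower, with a median of -0.05. Tob1, an antiproliferative protein, was at 27.0, 34.1, 30.6 and 29.2 CPM against 55.7, 47.4 and 73.1 CPM, higher in every pMCAO library (log2 change 0.96, SE 0.21, adjusted p = 0.0898), and it was called by DESeq2, by limma-voom with quality weights and without pMCAO 2. Cdkn1a, which encodes p21, had a log2 change of -0.64 and Btg1, a relative of Tob1, of 0.49, both with overlap.

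The list of FoxM1, B-Myb, MuvB, DREAM and NF-Y factors, which regulate the mitotic genes, gave 8 of 14 lower means and a median of -0.12. Foxm1, the forkhead factor of late cell cycle genes, was at 8.78, 6.11, 6.96 and 19.8 CPM after sham surgery and at 3.33, 3.86 and 3.87 CPM after pMCAO. The groups did not overlap, Sham 4 stood high, and the log2 change was -1.50 (SE 0.47, adjusted p = 0.202). Lin37, a MuvB subunit, had a log2 change of -0.99 without overlap and Tfdp2, a partner of E2F factors, of 0.42. The anaphase-promoting complex, whose activator is Cdc20, had 10 of 16 lower means and a median of -0.14. Its subunits Anapc16, Anapc13 and Anapc7 were at 0.64, -0.97 and -0.64 on the log2 scale.

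Cohesin is the ring that holds sister chromatids together and also shapes chromatin in cells that do not divide. Its list had 9 of 12 means higher and a median of 0.19. Of the 12, 3 were higher at an unadjusted p under 0.05, against 6.97% of all genes. Those 3 were Wapl (listed as Wapal), the factor that opens the ring, Nipbl, which loads it, and Stag2, one of its subunits. Their log2 changes were 0.40, 0.45 and 0.42, at adjusted p of 0.308, 0.345 and 0.355 by edgeR. The groups overlapped for Nipbl and Stag2. In the list of macrophage growth control 10 of 14 had lower means (median -0.30). Il4ra, the receptor subunit for interleukin 4, had a log2 change of -0.75, and the myeloid transcription factors Klf4 and Irf8 of 0.57 and -0.43, all without overlap, at adjusted p of 0.146, 0.192 and 0.277.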

How the data were processed

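The series holds 7 RNA-seq libraries, 4 sham and 3 pMCAO. The read counts per gene are the authors' deposited values, made with STAR and featureCounts on GRCm38 (mm10), with limma also named, per the submitters' processing notes and without versions. The strand setting and the annotation release were not given in the sources used here. The log2 fold changes and p-values of the authors' deposited table are used only where named as such, and its deposited CPM columns were not used. All other values came from the counts: edgeR 4.0.16 (R 4.3.3), quasi-likelihood F test with robust dispersion and TMM factors, group as the only term, two-sided, Benjamini-Hochberg adjustment over all 17209 genes (the expression filter removed none), threshold 0.05. The SE is the log2 change divided by the square root of F. The procedure was run on simulated counts, with a check only on the size and sign of the estimated changes. The floor that 3 counts allow was 0.256 CPM in pMCAO 1, the shallowest library, and 0.0825 CPM in Sham 4, the deepest. It covers counting error only, because amplified reads carry no molecular identifier.

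Positions, exon lengths and GC content came from GENCODE M21, which holds 17127 of the 17209 identifiers, and promoters from RefSeq. Named in full were, per role, the 3 genes with the smallest p and the gene with the highest CPM per kilobase, and, per other list, the 3 genes with the smallest p. The members and lists were chosen with earlier results of these data known. Alternatives covered scaling, filters, DESeq2 1.42.0, limma 3.58.1, a replicate block, left-out libraries, thinned counts, marker scores and GC offsets (mgcv 1.9.3). No columns were left unmapped.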

Additional observations from a re-analysis of the deposited data

Results flagged for a closer look

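In 39 groups of 4 sham libraries (each of the 37 genes and 2 sums), 3 held a library far from the other 3, where chance gives about 1 in 20. The groups are not independent, because they share the same 4 libraries and the sums contain the genes, Kif23 among them. Kif23 was at 67.0 CPM in Sham 4, and the next highest sham library was at 41.2 CPM. The members' sum without Mki67, Smc4 and Top2a was 857 CPM in Sham 4, next to 612 CPM. Ncapg was at 19.6 CPM in Sham 1, next to 12.6 CPM.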

How the results depend on the processing

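Of the 23 other settings tried, adjusted p under 0.10 reused the main fit and no filter repeated it, as the filter removed no gene. The median log2 change of the members was negative in all 23. It was -1.04 by limma-voom with quality weights, -0.36 with the fibroblast and endothelium score as a covariate, and -0.57 to -0.88 with 1 library left out. Without scaling factors it was -0.85, beside -0.15 for all genes. The number of members called was 7 by DESeq2, 8 with quality weights, 1 (Kif11) with GC and length offsets or at an adjusted p under 0.10, and 0 with any 1 library left out. Genes called over the whole table, 17 here, were 476 by DESeq2, 35 by limma-voom, 818 with quality weights, 98 at an adjusted p under 0.10, 34 with upper-quartile factors, 29 without scaling, 28 and 76 among genes averaging 1 CPM or 5 CPM and more, 35 with thinned counts, 0 with either marker score, 1 without both Sham 4 and pMCAO 1, and 0 to 100 with 1 library left out. Without pMCAO 1 it was 0 (1987 genes at an unadjusted p under 0.05), without pMCAO 2 100, without pMCAO 3 7, without Sham 4 9, and without Sham 1 or Sham 2 47. Of the other cell cycle lists, 15 genes were called by DESeq2, 15 with quality weights, 3 (Uhrf1, Ccnd1 and Tob1) at an adjusted p under 0.10, 1 (Uhrf1) among genes averaging 5 CPM or more, and 0 to 1 with 1 library left out. The ratio of summed CPM was 0.668 to 0.775 with 1 library left out. Of the members, 25 kept their sign in every setting that tested them, and Birc5, in 8 of 22, changed it most often. Settings with GC offsets, the pan-macrophage score, or without both Sham 4 and pMCAO 1 were chosen after seeing the data.

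With the replicate number as a block (replicate block, 6 libraries), 21 genes and 0 members were called, and the members' median was -0.64 beside -0.03 for all genes. The libraries share only a number: same-numbered pairs correlated at -0.11, 0.01 and 0.18 over 11588 genes.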
